A study of Mus musculus with 18 samples.

Results

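The loci described here are those of 10 genes that take part in T cell receptor signalling or are switched on by it. They are the NFAT factors Nfatc1 and Nfatc2 and the NF-kB genes Nfkb1, Rel and Nfkbia. The others are the zinc finger genes Egr1, Egr2 and Egr3, and the orphan nuclear receptor genes Nr4a1 and Nr4a3. Every accessible region that names one of these genes as overlapping or flanking was taken, which gave 76 of the 65983 regions of the deposited table. The table names 26755 genes in all, of which 16540 have a symbol that is not a provisional name or an Ensembl identifier. The study profiled mouse CD4 T cells by ATAC-seq, in which a transposase inserts sequencing adapters into open DNA. It used 18 samples in 6 groups of 3, Id3 knockout and wild type cells labelled Th1 at 24 h and labelled Tcmp or Teff at 72 h. All groups came from naive cells that were stimulated with beads carrying antibodies to CD3 and CD28 and grown with IL-2, IL-12 and an antibody to IL-4. The sources used here do not say how Id3 was removed, what Tcmp and Teff stand for, or whether each sample was a different mouse.

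Calcium entry after receptor engagement activates the phosphatase calcineurin, which removes phosphates from NFAT proteins so that they enter the nucleus. A parallel branch through protein kinase C theta leads to destruction of the inhibitor encoded by Nfkbia and frees NF-kB dimers such as those of p50 (from Nfkb1) and c-Rel. Egr and Nr4a genes are switched on within minutes to hours of stimulation, and in T cells Egr2, Egr3 and the Nr4a receptors are known for restraining the response as well as for reporting its strength. Id3, the gene knocked out in this study, blocks E proteins, which bind the E-box. Id3 itself is known as a target of Egr factors in developing T cells.

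All 6 contrasts share 1 list of regions, with no column for a single sample. In every contrast the p-value divided by the number of windows fell 0 times between successive regions along the table, among the 25375 to 53444 regions with a p-value below 1, so the listed fold changes and p-values do not belong to the region in their row. None of them is reported at these genes. The results are therefore the number, position, class, width and window count of the regions, which describe the study's region set as a whole and cannot be divided by genotype, time or cell label. No test was possible, and ranks among all genes are given as a description. All 8 of the T cell marker genes looked up (Cd3e, Cd3d, Cd3g, Cd247, Cd4, Lck, Zap70 and Cd28) had a region overlapping the gene. So did all 4 Th1 markers (Tbx21, Ifng, Il12rb2 and Stat4), though Tbx21 had no promoter region. Of all genes named, 85.5% had an overlapping region, and of those with a symbol 93.5%. Both shares leave out genes that no region names. Of 18 markers of B cells, myeloid cells, NK cells, erythroid and epithelial cells, 11 were named by a region, and 10 of these 11 had an overlapping one. Cd79b, Ms4a1, Csf1r, Lyz2, Cd14, Ncr1 and Hbb-bt were named by none. Of the CD8 T cell markers, Cd8b1 had an overlapping region and Cd8a only a flanking one.

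All 10 genes were named by at least 2 regions, and 3 of them, both NFAT genes and Nfkb1, had far more than the other 7. Nfatc2 was named by 23 regions, Nfkb1 by 19 and Nfatc1 by 14. Nr4a1 was named by 5, Rel, Nfkbia and Nr4a3 by 3 each, and Egr1, Egr2 and Egr3 by 2 each. The median over all genes named was 2 regions (quartiles 1 and 3), so 7 of the 10 lay above it, and 37.5% of all genes and 47.9% of those with a symbol did. At least as many regions as for Nfatc2 were listed for 0.396% of genes, as for Nfkb1 for 0.777% and as for Nfatc1 for 1.61%. Among genes with a symbol, as all 10 have, these shares were higher, at 0.617%, 1.18% and 2.44%. Among all genes named, the share for Nr4a1 was 14.2%, for the genes with 3 regions 37.5%, and for the Egr genes 62.6%. Among genes with a symbol these were 20.0%, 47.9% and 72.9%. Longer genes can hold more regions, and gene lengths on this build were not used here.

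**Figure D1:**
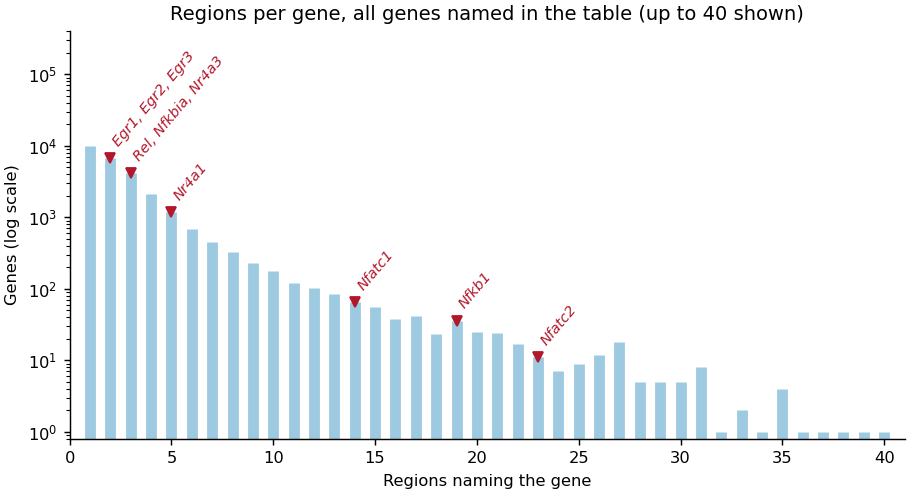
Number of regions naming a gene (x axis) against the number of genes with that count (y axis, log scale), for all genes named up to 40 regions. Triangles mark the 10 genes: Egr1, Egr2 and Egr3 sit at the median of 2 regions, and Nfatc1, Nfkb1 and Nfatc2 lie far to the right at 14, 19 and 23.

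The table gives each region a class for each gene, read here as promoter (P), exon (E) and intron (I), alone or combined, and gives a distance in bp for genes to its left or right. Regions of class P reached at most 3000 bp upstream of the gene and upstream flanking regions started at 3001 bp, so P covers the 3000 bp before a start as well as some bases after it. Distances ended at 5000 bp. Regions in introns carried distances to the same gene in 56.3% of cases, so these distances lead to the nearest annotated part of the gene, read here as its nearest exon, and not to its outer border.

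Of the 76 regions, 37 lay in an intron alone (48.7%), 24 had a class with P (31.6%), 7 lay over an exon away from a promoter (9.21%) and 8 were flanking (10.5%). Over all 76686 pairs of a region and a gene these shares were 34.2%, 37.0%, 7.16% and 21.7%. Over the 56826 pairs with a gene that has a symbol they were 38.3%, 37.1%, 7.73% and 16.9%. Most of the intronic regions belonged to the NFAT genes, with 19 of 23 regions at Nfatc2 and 9 of 14 at Nfatc1. At Nfkb1 6 of 19 regions were intronic, a share no higher than that over all pairs. In the remaining 7 genes 12 of 20 regions had a class with P (60.0%) and 3 were intronic.

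**Figure D2:**
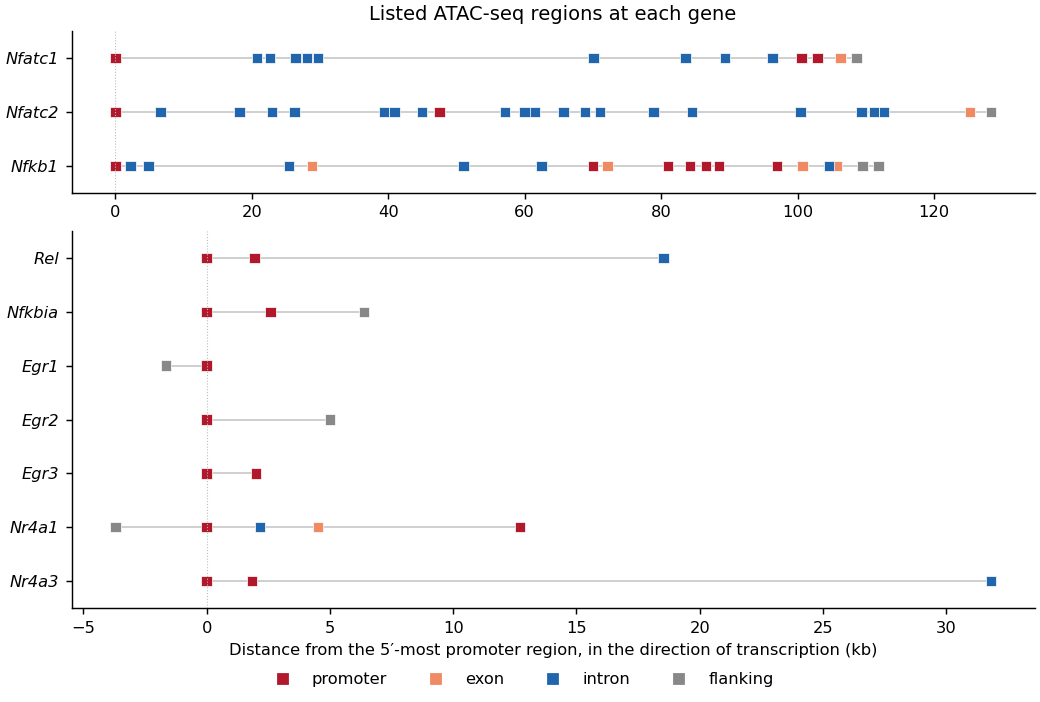
Each square is a listed region, placed by the distance in kb of its centre from the centre of the 5′-most promoter region of its gene, with transcription running to the right, and coloured by class. The x scales of the panels differ: regions of Nfatc1, Nfatc2 and Nfkb1 spread over more than 100 kb, whereas those of Egr1 and Egr3 lie within about 2 kb.

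Nfatc1 encodes the NFAT protein whose own gene is induced by T cell activation. Its start region at chromosome 18, 80755601 to 80756300 (GRCm39, as are all region positions), had the class promoter and exon. It was followed by 5 intronic regions, 20775 to 29725 bp into the gene. No region was then listed until 70050 bp, which left a gap of 40325 bp between region centres. Near the 3′ end were 2 further regions with a class of promoter and intron, at 100600 and 102950 bp, then an exonic region at 106275 bp, which is also in the promoter class of the neighbouring gene Gm41790. A region 1820 bp beyond the nearest exon of Nfatc1, inside an intron of Gm41790, closed the locus. The intronic regions of Nfatc1 thus fell into a 5′ cluster of 5 and a 3′ set of 4.

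Nfatc2, which encodes the NFAT protein already present in resting T cells, had the largest set. Its start region was at chromosome 2, 168443001 to 168443700, 700 bp wide with 9 windows, and 32.2% of the 15367 regions with a class of promoter and exon were at least as wide. Of the other 22 regions, 19 were intronic, and their number is reached by 0.43% of all genes. They ran through the gene from 6600 to 112675 bp after the start region, with no gap above 15950 bp between centres. One more promoter region lay 47550 bp into the gene, over an intron. Among the 809 genes with at least 10 overlapping regions, the mean spacing of regions had a median of 9780 bp (quartiles 6794 and 14920). Nfatc2 had 5964 bp, with 15.5% of these genes more closely spaced, while Nfkb1 had 6611 bp (23.4%) and Nfatc1 had 8856 bp (44.0%).

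Nfkb1 encodes p105, the precursor of the NF-kB subunit p50. It stood out by its promoter regions. It had 7, a number reached by 0.071% of all genes and by 0.115% of genes with a symbol, and 6 of them also covered an exon. One was the 5′-most, at chromosome 3, 135396901 to 135397500, and the other 6 lay between 70025 and 97000 bp into the gene, with 1 exonic region among them at 72175 bp. Between the 5′-most region and this group lay 5 intronic regions and 1 exonic region, and past the group, towards the 3′ end, 1 intronic and 2 exonic regions. Class P depends on which transcript starts are annotated, and the part of the annotation in this count was not tested. A pair of flanking regions lay 2466 and 4866 bp past the 3′ end. Widths at Nfkb1 ranged from 350 to 650 bp.

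Rel encodes c-Rel, the NF-kB subunit most restricted to lymphoid cells. Its start region, at chromosome 11, 23720701 to 23721450, was the widest of the 76, with 750 bp and 9 windows, and 17.8% of regions with a class of promoter and exon were as wide or wider. A region of class P alone lay 1950 bp upstream of it, centre to centre, and a single intronic region lay 16575 bp downstream of it. Nfkbia encodes IkB-alpha, the inhibitor that holds NF-kB in the cytoplasm and is itself an NF-kB target. Its start region was narrow, with 350 bp and 2 windows at chromosome 12, 55539251 to 55539600, and 98.1% of regions with a class of promoter and exon were at least as wide. The wider Nfkbia region was 2600 bp upstream, with 650 bp and 8 windows, and it also lies in the promoter class of the unnamed gene ENSMUSG00000112348. The remaining region lay 345 bp downstream of the gene.

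Nfkbia and Rel are both known targets of NF-kB, and their promoters were searched for its motif. RefSeq windows of 250 bases before the start were searched on both strands for exact matches. They were available for 6 of the 10 genes (Nfatc2, Rel, Nfkbia, Egr2, Nr4a1 and Nr4a3), on build GRCm38.p6. These windows were not overlaid on the regions, which are on GRCm39. Both sequences are shown for the kB consensus, in capitals:
Nfkbia, chr12:55492648-55492897, minus strand: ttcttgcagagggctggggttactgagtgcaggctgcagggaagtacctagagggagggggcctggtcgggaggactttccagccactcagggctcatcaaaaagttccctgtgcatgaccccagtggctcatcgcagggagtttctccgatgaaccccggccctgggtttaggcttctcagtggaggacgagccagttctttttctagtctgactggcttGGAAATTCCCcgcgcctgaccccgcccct
Rel, chr11:23770970-23771219, minus strand: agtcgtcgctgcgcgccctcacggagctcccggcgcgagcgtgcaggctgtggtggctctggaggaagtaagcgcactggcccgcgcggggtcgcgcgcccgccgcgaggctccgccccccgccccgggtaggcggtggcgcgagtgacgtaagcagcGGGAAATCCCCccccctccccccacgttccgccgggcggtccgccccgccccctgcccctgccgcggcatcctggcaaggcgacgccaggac
The Nfkbia window had 1 match, whose first base was 29 bp before the start. The Rel window had 2 matches that overlap by all but 1 base, starting 92 and 91 bp before the start. A kB match was found in 3 of the 6 genes, also at the 5′-most of the 5 RefSeq starts of Egr2, and in 8.23% of all 27025 genes in the promoter table. Here and below, a gene counts if any of its starts has a match. By start, 3 of the 11 windows of the 6 genes had a match, against 7.25% of all 32851 windows. Among relatives, Nfkb2 had a match at each of its 3 starts, Egr4 had 2 matches and Nfkbie had 1. Nfkbib, Rela, Nfatc3, Nfatc4, Nfat5 and Nr4a2 had 0. A match is a run of letters and does not show binding.

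The Egr genes encode zinc finger factors induced early after stimulation. Each had 2 listed regions, the median over all genes named, and none of these was classed as exonic. Egr1 had a promoter region at chromosome 18, 34990851 to 34991350, which ended 1526 bp before the nearest exon, and a flanking region 3126 bp before it.

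Egr3 had 2 promoter regions, at chromosome 14, 70312051 to 70312700 and 70314151 to 70314600, the second of which ended 52 bp before the exon. The Egr2 promoter region, at chromosome 10, 67373051 to 67373650, was classed as promoter and intron and ended 49 bp before the next exon. Egr2 also had a flanking region of a single window, 183 bp past the gene and 1841 bp from Ado. Of all 20319 genes with a promoter region, 20.8% had no region over an exon, as did 10.1% of the 14138 among them with a symbol. Their relative Egr4 had 1 region, over promoter and exon. That the 3 Egr genes share this feature was noticed after their values were seen.

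The Egr2 window shown, for 1 of its 5 RefSeq starts, carries the CArG box, the element bound by serum response factor, in capitals:
Egr2, chr10:67537619-67537868, plus strand: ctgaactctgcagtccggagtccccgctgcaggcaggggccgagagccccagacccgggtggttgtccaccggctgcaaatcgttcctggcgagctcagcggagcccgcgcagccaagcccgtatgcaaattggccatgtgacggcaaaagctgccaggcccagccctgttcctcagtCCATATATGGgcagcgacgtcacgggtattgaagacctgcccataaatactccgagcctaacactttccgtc
The box began 72 bp before the start. A match was present at 4 of the 5 Egr2 starts, of which 3 have overlapping windows and share the same bases, and in 1.62% of the genes in the promoter table. No other of the 6 genes had one. The motif of Egr factors themselves, GCGNGGGCG, was found in 1 of the 6 genes, Nr4a1, and in 5.33% of all genes.

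Nr4a1 (Nur77) and Nr4a3 (Nor-1) encode nuclear receptors that act without a known natural ligand. Nr4a1 had 5 regions. The first, at chromosome 15, 101148051 to 101148500, was flanking, 3650 bp upstream. A region over promoter and exon followed at 101151651 to 101152300, then an intronic region 2175 bp and an exonic region 4525 bp further on, and a second region over promoter and exon 12700 bp further on. The exonic region was 700 bp wide with 9 windows. Nr4a3 had a promoter region at chromosome 4, 48042901 to 48043550, a region over promoter and exon 1850 bp after it, and an intronic region 31800 bp after it. Their relative Nr4a2 had 2 regions, both in the promoter class.

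Both Nr4a windows are shown for the core of the cAMP response element, TGACG on either strand, in capitals, which is the site of CREB family factors:
Nr4a1, chr15:101266596-101266845, plus strand: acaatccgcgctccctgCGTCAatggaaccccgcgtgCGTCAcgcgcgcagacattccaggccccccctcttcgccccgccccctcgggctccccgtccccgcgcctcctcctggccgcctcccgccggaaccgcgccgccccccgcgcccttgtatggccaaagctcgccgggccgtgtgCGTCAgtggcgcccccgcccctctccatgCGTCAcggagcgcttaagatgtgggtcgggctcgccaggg
Nr4a3, chr4:48045055-48045304, plus strand: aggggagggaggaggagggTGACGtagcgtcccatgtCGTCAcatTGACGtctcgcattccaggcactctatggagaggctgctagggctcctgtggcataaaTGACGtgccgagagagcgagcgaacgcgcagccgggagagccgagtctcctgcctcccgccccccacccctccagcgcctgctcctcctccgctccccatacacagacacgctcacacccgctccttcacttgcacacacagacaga
Each window had 4 matches, from 233 to 40 bp before the start in Nr4a1 and from 231 to 147 bp before it in Nr4a3. The window of Nr4a2 also had 4. At least 4 matches were present in 45 of 32851 promoter windows (0.137%), and in 41 of the 8356 windows with at least 16 CpG (0.491%). The motif holds a CpG, and the windows of Nr4a1, Nr4a3 and Nr4a2 had 34, 18 and 44 CpG against a median of 6 (quartiles 2 and 16). At least as many CpG were present in 3.53%, 21.7% and 0.539% of windows, so the share of 0.491% is not matched to Nr4a1 and Nr4a2 in CpG. A single match or more was found in 4 of the 6 genes and in 19.8% of all genes. The CRE core and the CArG box were added to the motifs searched, and the windows to print chosen, after matches had been seen.

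The E-box is the element of the E proteins that Id3 blocks. CANNTG was found in 3 of the 6 genes and in 69.3% of all genes. CAGCTG was in 0 of 6 (14.7% of all genes), and CACCTG in 1 of 6, the downstream start of Nfatc2 (19.4%). The NFAT core GGAAA was in 4 of 6 (58.8%) and TGGAAA in 3 of 6 (20.9%). AP-1 TGANTCA (7.82% of all genes), the Nr4a element AAAGGTCA (1.55%), ETS CCGGAAG (7.83%) and RUNX TGTGGTT (5.08%) were in none of the 6. With 6 genes, 1 gene more or fewer moves each share widely, and only the windows of 250 bases were searched.

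The surroundings of Egr2 and Nfkbia held many regions that name no gene. Genes with a promoter region (20319) had a median of 12 other regions (quartiles 7 and 18) within 100 kb of the 5′-most one. Of the 10 genes, 9 lay above this median, each with at least 13, as 48.7% of the 20319 genes had. These counts include the gene's own other regions, which made up most of those at Nfatc2 and Nfkb1. Nfatc2 and Nr4a1 had 22, Egr2 20, Nfkb1 19, Nfatc1 and Nfkbia 18, Egr1 16, and Rel and Egr3 13. Nr4a3 had 10. Regions that name no gene, so that they lie more than 5000 bp from any, were most numerous at Egr2 with 13 and at Nfkbia with 12, where the median gene had 1. At least as many were found around 0.62% of genes for Egr2 and 0.886% for Nfkbia.

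At Nfkbia 11 of the 12 lay downstream, from 12325 to 62775 bp after its first promoter region (chromosome 12, 55478951 to 55529950), in a stretch where none of the listed regions named a gene. At Egr2 8 lay upstream, the farthest 78550 bp away, and 5 lay downstream, from 61375 to 99350 bp. Unlike at Nfkbia, regions naming other genes lay between them. Upstream, a flanking and a promoter region of other genes lay among the 8. Downstream, regions naming other genes lay from 11575 to 48925 bp, nearer to Egr2 than all 5. Nr4a3 had 7, Nfkb1 and Rel had 6 each, Nr4a1 had 4, Egr1 and Egr3 had 3 each, Nfatc1 had 2 and Nfatc2 had 1. How far the nearest genes lie from these stretches was not measured, and the table does not tell which gene a region acts on.

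**Figure D3:**
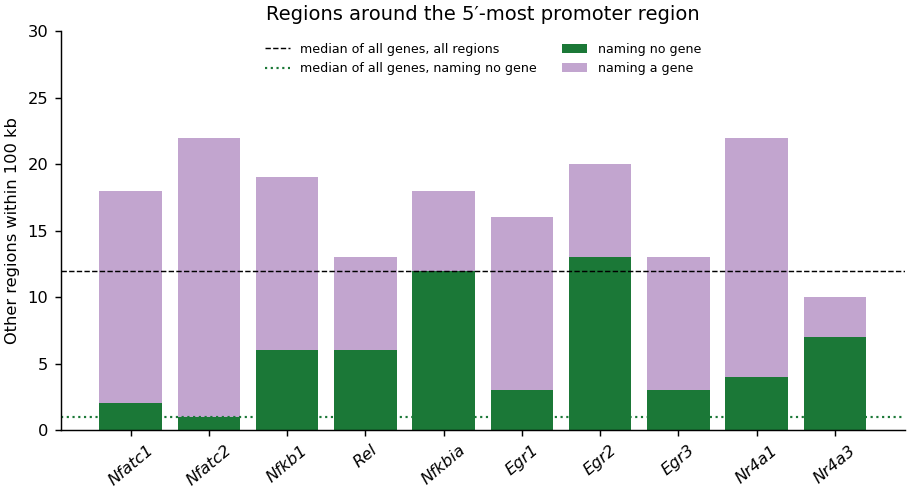
Bars give, for each gene, the number of other regions within 100 kb on either side of its 5′-most promoter region, divided into regions that name a gene and regions that name none. Lines mark the medians of all genes with a promoter region, 12 for all regions and 1 for regions naming no gene; Egr2 and Nfkbia have 13 and 12 of the latter.

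Pooled over classes, median width and median window number were those of the table at large. The 76 regions had a median width of 550 bp (quartiles 500 and 650, range 300 to 750) and a median of 6 windows (range 1 to 9), against 550 bp (quartiles 500 and 650, range 300 to 1100) and 6 windows (range 1 to 16) in all regions. By class there were small differences in both directions. Promoter regions had a median of 6 windows against 7 in all regions of that class. Flanking ones had 500 bp and 5 windows against 550 bp and 6, and exonic ones 575 bp and 6.5 windows against 550 bp and 6. By gene the median width was lowest at Nfkbia, with 400 bp, and highest at Nr4a1 and Nr4a3, with 650 bp. Windows were 300 bp long and began every 50 bp, and 72 of the 76 regions held every window their width allows. The exceptions were an intronic Nfatc2 region and the Rel start region, each lacking 1 window, the Egr2 promoter region lacking 2, and the Nfatc1 start region lacking 7. Windows were missing from 2.24% of all regions.

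**Figure D4:**
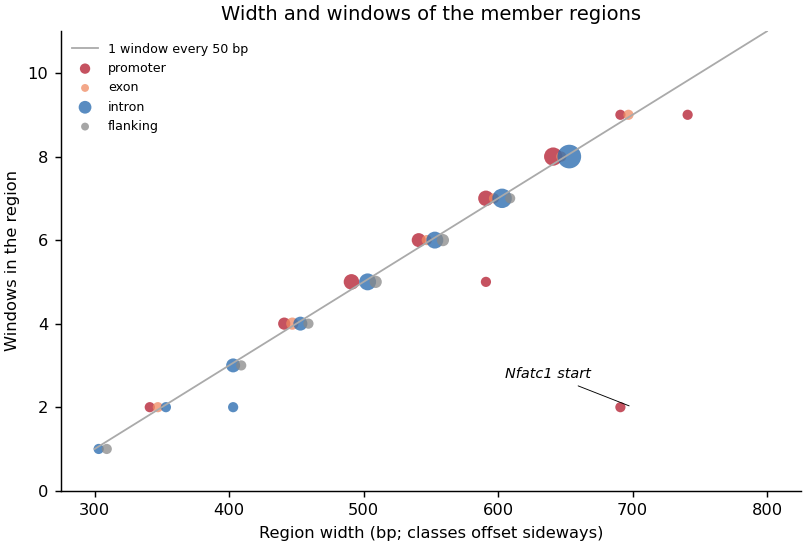
Region width in bp (x axis) against the number of windows in the region (y axis) for the 76 regions, coloured by class and shifted slightly sideways by class, with point area growing with the number of regions. Points on the line hold a window every 50 bp; the Nfatc1 start region, 700 bp wide with 2 windows, lies farthest below it.

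Of 43 other genes of these pathways, 42 had an overlapping region and 42 a promoter region, and 38 were named by more regions than the median gene. Among all genes that the table names, 85.5% had an overlapping region and 75.9% a promoter region, and among those with a symbol 93.5% and 85.5%. The shares above the median gene were 37.5% and 47.9%. All these shares leave out genes that no region names, whereas the 43 include such a gene, so the denominators differ. The median was 7 regions for the 16 NFAT and calcineurin genes, 4 for the 23 NF-kB genes and 2.5 for 4 Egr and Nr4a partners. Only Rcan2, which encodes a calcineurin regulator, was named by none. Prkcq, which encodes protein kinase C theta, had the most, with 25 regions, 23 of them intronic. Dyrk1a, which encodes a kinase that sends NFAT out of the nucleus, had 18.

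Among transcription factors of the same families, Nfatc1 and Nfatc2 had more regions than their relatives, with 7 for Nfatc3, 4 for Nfat5 and 3 for Nfatc4. The NF-kB relatives had 4 (Relb) and 3 (Nfkb2 and Rela), near the 3 of Rel and far from the 19 of Nfkb1. The inhibitors Nfkbie and Nfkbib had 4 and 1, beside 3 for Nfkbia. The related genes Nfkbid, Nfkbiz and Bcl3, whose products act on NF-kB in the nucleus, had 3, 3 and 4. These counts are not corrected for gene length.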

How the data were processed

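The deposited table holds the authors' own comparisons, 65983 regions under each of 6 contrasts, with no value per sample. The submitters' processing notes name the build GRCm39 and, without versions or roles, edgeR, Picard, BWA and Trim Galore. Per the file headers, the authors' columns give a p-value and an adjusted p-value, a log2 fold change, numbers of windows, and the genes each region overlaps or lies near. The sources used here state neither window filtering and merging nor library depth, so no error can be attached to a region.

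The region list of 1 contrast was parsed with Python 3.11.15, pandas 2.3.3 and NumPy 2.4.6, and figures were drawn with matplotlib 3.10.9. A region counts once per gene it names in its overlap, left or right column. The share of genes with at least as many regions is the rank used. Parsing and motif search were tested on simulated data. RefSeq promoter windows (GRCm38.p6) end at the base before the start. The 10 genes, the pathway and marker lists and the settings were chosen with earlier results of these data known. The genes named are the 10, 10 relatives, and the pathway genes with the most and the fewest regions; Dyrk1a, Nfkbid, Nfkbiz and Bcl3 were named after their values were seen.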

Additional observations from a re-analysis of the deposited data

How the results depend on the processing

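Counting overlapping regions alone gave 68 regions over the 10 genes, and keeping flanking regions within 2000 bp gave 71, against 76. Merging regions within 500 bp changed none of these counts. By gene, the count moved by more than 1.5 times for 2 genes with overlapping regions alone (Egr1 and Egr2, from 2 to 1) and for 1 gene with the 2000 bp limit (Egr1, from 2 to 1). Counting only class P alone left 6 of the 24 promoter regions, by construction, since most also cover an exon or intron. The CArG box was held by 4 promoter windows when every start was counted, all of Egr2, against 1 gene. Within 50000 bp in place of 100000 bp, 8 of the 10 genes lay above the median for surrounding regions, against 9. These 8 had at least 8 regions within 50000 bp, as did 37.5% of all genes with a promoter region. Regions naming no gene were then 8 at Nfkbia (at least as many around 0.763% of genes) and 5 at Egr2 (3.46%), so the place of Egr2 depends on the distance used. The settings for genes with a symbol, for 50000 bp and for promoter windows were chosen after seeing the data.

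No paired analysis was possible because samples have no columns of their own, and leaving out a replicate was not run for the same reason. Motif searches within the regions and counts per gene length were not run, since no genome or gene spans of the table's build were used here. The ranking among protein-coding genes was not run, and shares among genes with a symbol were added beside those among all genes. Depth is unknown, so a gene or exon with no listed region cannot be told from one below the limits of listing.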

Other observations

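The start region of Nfatc1 lacked 7 of the 9 windows that its width allows, and 62 of all 65983 regions (0.094%) lacked that many. Missing windows were found in 2.94% of regions in the promoter class, 1.83% of intronic regions and 1.91% of regions naming no gene. Among the 24 promoter regions of the 10 genes, 1 each of Nfatc1, Rel and Egr2 lacked windows. The table gives no read depth for the windows concerned.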
